A study of Mus musculus with 12 samples.

Results

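The Hox cluster genes are the 39 genes, of 22548 in the expression table, whose symbol is Hox followed by a cluster letter (a to d) and a paralogue number. They were taken by symbol alone, without antisense transcripts. Expression was measured by RNA-seq in long-term hematopoietic stem cells (HSCs) sorted from C57BL/6 mice. Young mice, 2 to 4 months old, gave 4 samples (replicates 2 to 5). Aged mice, 20 to 26 months old, gave 5 untreated samples (replicates 0 and 2 to 5) and 3 samples (replicates 1 to 3) treated with CASIN, which inhibits the small RhoGTPase Cdc42. By the labels all samples, controls included, were incubated for 16 h at 3% O2, and 5 µM CASIN was added to the treated cells only. By the labels each sample held at least 200 sorted cells, each group at least 3 mice, and no altered gene is given. The labels do not state whether a sample is 1 mouse or a pool, so the p-values measure the spread between these samples.

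Hox genes encode homeodomain transcription factors that lie in 4 clusters, HoxA to HoxD. Within a cluster, genes with low paralogue numbers pattern the anterior and genes with high numbers the posterior of the embryo, and genes of the same number in different clusters are paralogues. The proteins bind DNA with TALE cofactors of the Meis and Pbx families, and their genes are kept active by the MLL (Kmt2a) complex and silenced by Polycomb proteins. In the blood system HoxA and HoxB genes, above all Hoxa9 and Hoxb4, are known for promoting the self-renewal and expansion of stem and progenitor cells, and Hoxa9 with Meis1 is a known driver of leukemia.

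The deposited values are log2 expression levels, already brought by the authors to nearly the same distribution in every sample. In each sample many genes share one lowest value, which lay between 0 and 0.67. A gene above it is called detected here, and a sample not named for a gene was at its lowest value. Read depth is unknown. The share of all genes detected was 27.0% to 42.9% in young, 50.8% to 78.1% in aged and 30.4%, 88.8% and 32.3% in CASIN replicates 1 to 3, so that detection itself separated young from aged samples and CASIN replicate 2 from its group. It is not known whether the values are per length, and no order of levels between genes is given. In the sorted cells 12 LT-HSC marker genes were chosen for a check of the label, of which 3 to 7 were detected in young, 7 to 11 in aged and 3 to 12 in CASIN-treated samples. Hlf, a transcription factor of HSCs, was detected in 11 of 12 samples, but Kit and Ly6a, which encode the c-Kit and Sca-1 proteins of the sorting gate, in only 4 samples each, none of them young. Itgam, a myeloid gene, stood at 7.48 to 9.17 and Il7r, a lymphoid receptor gene, at 3.88 to 7.21, with both detected in all 12 samples. Of the markers of other cells, 0 to 2 of 7 erythroid and megakaryocyte genes were detected in young, 2 to 5 in aged and 0 to 3 in CASIN-treated samples (summed log2 values 0 to 9.66, 7.86 to 17.1 and 0 to 11.4). For 7 myeloid genes, with Prtn3 at the lowest value everywhere, the numbers were 2 to 3, 3 to 5 and 2 to 5 (sums 11.4 to 16.13, 13.4 to 20.3 and 12.1 to 13.2). For 8 lymphoid genes they were 1 to 4, 4 to 7 and 3 to 8 (sums 7.15 to 17.96, 16.8 to 30.7 and 15.9 to 28.5). For 10 stromal and endothelial genes they were 1 to 6, 6 to 9 and 2 to 10 (sums 6.44 to 29.0, 24.5 to 49.2 and 13.2 to 36.1), and Col1a2, Lepr and Pdgfra of this list were lower in young than in aged samples at an unadjusted p under 0.05 (limma). At this threshold Lyz2 was higher in young than in aged, Pf4 higher after CASIN than in aged, and Col1a1 higher and Lepr lower in young than in CASIN-treated samples. Of all genes, 5.33% passed in young against aged, 4.4% in CASIN-treated against aged and 4.29% in young against CASIN-treated samples. The smallest adjusted p of these marker genes was 0.516 (limma), for Lepr in young against aged. Col1a2 and Pdgfra were at the lowest value in all young samples, and Pf4 was above it in CASIN replicate 2 alone. The part of such cells in the Hox values was not tested, and fewer cells of a type and less RNA per cell cannot be told apart in bulk samples.

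The 39 genes were all found in GENCODE M21 (GRCm38, the mm10 build). The 11 HoxA genes lie on chromosome 6 (chr6:52155590-52260880, minus strand), the 10 HoxB genes on chromosome 11 (chr11:96194316-96368256), the 9 HoxC genes on chromosome 15 (chr15:102921103-103036852) and the 9 HoxD genes on chromosome 2 (chr2:74668310-74765142), the latter clusters all on the plus strand. All are annotated as protein-coding. Exons are shared between Hoxc5 and Hoxc10 (166 bases) and between Hoxd3 and Hoxd4 (388 bases), so the values of these 4 genes are uncertain. The clusters also hold antisense transcripts. Strand handling is not described, so reads of a Hox gene and of an antisense partner cannot be told apart. A promoter sequence from RefSeq (GRCm38.p6) was at hand for 22 of the 39 genes. In the window upstream of the transcription start, of the length given by the coordinates below, these held 2 to 35 CpG dinucleotides (median 12, against 6 over all 32851 promoters). The 6 Hox genes among them that were detected in 5 samples or fewer had 3 to 35 (median 22), and the 16 detected in 6 or more had 2 to 31 (median 9.0). Across the 22 genes, each with the promoter nearest its annotated start, Spearman's rho between CpG number and the number of samples with detection was -0.34. Across all 16492 genes with a promoter rho was 0.31, but there the promoter richest in CpG was taken for each gene. The 2 values are therefore not like for like. These are descriptions over genes that share libraries and differ in base composition, and 5 of the 22 starts lie outside the window from the annotated gene start. The following stretches show both ends of this range, namely Hoxd11 and Hoxb1, detected in 12 samples, Hoxb4, detected in 11, and Hoxa13, detected in 2. They are written 5′ to 3′ up to the start, and the capitals mark CpG.
Hoxd11, chr2:74679308-74679557, plus strand: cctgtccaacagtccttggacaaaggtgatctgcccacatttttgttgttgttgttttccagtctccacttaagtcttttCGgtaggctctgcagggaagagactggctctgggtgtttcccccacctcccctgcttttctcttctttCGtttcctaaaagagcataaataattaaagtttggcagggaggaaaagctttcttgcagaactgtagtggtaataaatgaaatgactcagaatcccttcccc
Hoxb1, chr11:96365508-96365757, plus strand: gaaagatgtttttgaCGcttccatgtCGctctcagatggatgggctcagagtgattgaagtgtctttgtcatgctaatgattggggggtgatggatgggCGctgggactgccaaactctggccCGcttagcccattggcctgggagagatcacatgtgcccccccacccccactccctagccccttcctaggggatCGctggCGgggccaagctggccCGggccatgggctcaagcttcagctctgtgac
Hoxb4, chr11:96318017-96318266, plus strand: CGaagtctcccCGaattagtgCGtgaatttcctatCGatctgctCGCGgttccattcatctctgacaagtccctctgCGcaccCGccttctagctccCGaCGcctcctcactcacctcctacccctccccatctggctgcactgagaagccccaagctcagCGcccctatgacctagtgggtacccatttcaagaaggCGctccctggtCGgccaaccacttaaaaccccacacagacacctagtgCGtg
Hoxa13, chr6:52260881-52261130, minus strand: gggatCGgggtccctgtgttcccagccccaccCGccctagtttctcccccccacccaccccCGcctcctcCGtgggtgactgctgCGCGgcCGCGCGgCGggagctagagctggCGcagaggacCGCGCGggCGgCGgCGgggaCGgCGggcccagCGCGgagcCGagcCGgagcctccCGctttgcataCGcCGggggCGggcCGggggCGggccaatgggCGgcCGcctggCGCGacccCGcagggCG
Hoxd11 had 2 CpG, Hoxb1 7, Hoxb4 14 and Hoxa13 35, a number reached by 81.2%, 46.3%, 29.4% and 2.97% of all promoters. The composite Pbx-Hox motif TGATNNAT, searched on both strands, was present upstream of Hoxa2, Hoxb1 and Hoxb8 (13.6% of the 22, against 7.68% of all promoters). TATAAA, also searched on both strands, was present upstream of Hoxb8, Hoxd4 and Hoxd13 (13.6%, against 12.4%). Of these, Hoxd13 alone held it on the strand of the gene, and Hoxb8 and Hoxd4 held it on the opposite strand only.

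Each of the 39 Hox genes was detected in at least 1 sample. Detection in all 12 samples was found for 4 genes, Hoxb1, Hoxb9, Hoxc8 and Hoxd11 (10.3%, against 9.50% of all genes), and detection in at least 6 samples for 27 genes (69.2%, against 51.4%). The median Hox gene was detected in 7 samples and the median gene of the table in 6. In young HSCs 42.3% ± 10.8 (SD, n = 4) of the Hox genes were detected, in aged HSCs 70.8% ± 9.17 (SD, n = 5) and in aged CASIN-treated HSCs 57.3% ± 33.0 (SD, n = 3). By sample these were 15, 22, 17 and 12 genes in young replicates 2 to 5, and 29, 33, 27, 24 and 25 genes in aged replicates 0 and 2 to 5. CASIN replicates 1 to 3 had 13, 37 and 17. The young and aged ranges did not overlap, as for all genes (34.3% ± 7.56 and 62.6% ± 11.9), and without CASIN replicate 2 the CASIN mean was 38.5%. A value of at least 2, in contrast, was reached by 41.0% ± 10.9 of the Hox genes in young, 38.5% ± 10.6 in aged and 38.5% ± 5.13 in CASIN-treated samples. By sample these were 15, 22, 15 and 12 genes in young, 12, 10, 20, 18 and 15 in aged and 13, 15 and 17 in CASIN-treated HSCs. On this measure the groups overlapped throughout, and most Hox values of aged replicates 0 and 2 and of CASIN replicate 2 were detected at under 2. Of all genes, a value of at least 2 was reached by 33.3% ± 6.19 in young, 38.1% ± 0.63 in aged and 33.7% ± 4.13 in CASIN-treated samples.

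**Figure D1:**
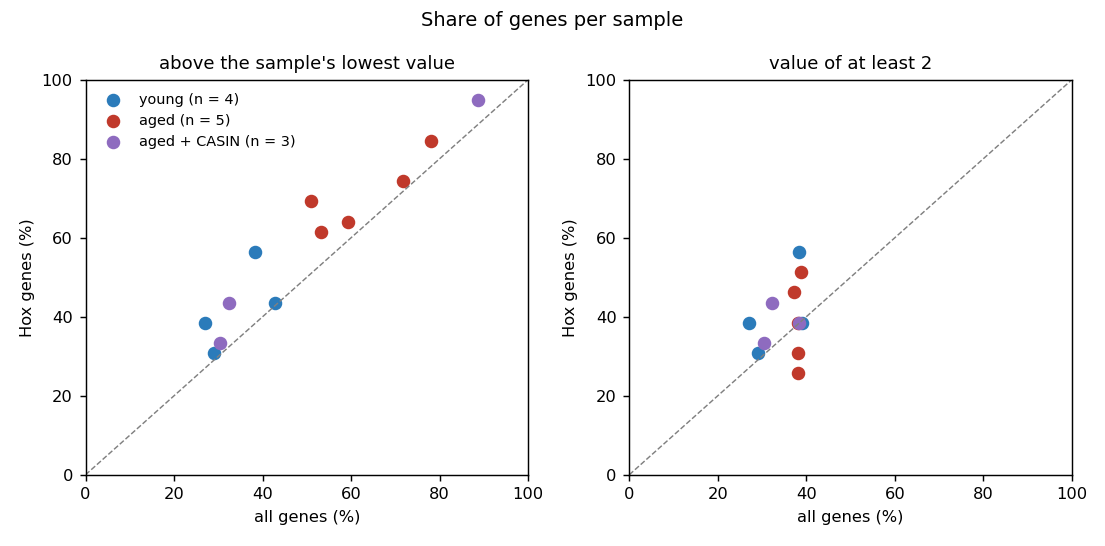
Share of Hox genes (vertical axis, %) against share of all genes (horizontal axis, %) for each of the 12 samples, counting genes above the lowest value of the sample (left) or with a value of at least 2 (right). Points are samples coloured by group, and the dashed line marks equal shares. On the left Hox detection follows that of all genes from 30.8% in young replicate 5 to 94.9% in CASIN replicate 2, and on the right the 3 groups overlap.

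By cluster, 50.0% ± 18.3 (SD over 4 samples) of HoxB genes, 44.4% ± 15.7 of HoxD, 38.6% ± 27.1 of HoxA and 36.1% ± 16.7 of HoxC genes were detected in young HSCs. In aged HSCs these shares were 78.0% ± 13.04, 66.7% ± 17.6, 61.8% ± 11.9 and 77.8% ± 17.6 (SD over 5 samples). In CASIN-treated HSCs they were 66.7% ± 25.2, 55.6% ± 38.5, 54.5% ± 39.6 and 51.9% ± 32.1 (SD over 3 samples). HoxB had the highest mean share in each group, but the clusters overlapped over the samples of every group. By position, anterior genes (paralogue numbers 1 to 3), central genes (4 to 8) and posterior genes (9 to 13) were detected at 50.0% ± 17.7, 36.7% ± 8.61 and 43.75% ± 16.9 in young HSCs. In aged HSCs the shares were 72.5% ± 16.3, 73.3% ± 4.71 and 67.5% ± 16.2, and in CASIN-treated HSCs 54.2% ± 40.2, 60% ± 30.6 and 56.25% ± 32.5 (SD over the samples of each group). The order of the means was not the same in the 3 groups. By single paralogue number, groups 8 and 9 were detected most often (80.6% of 36 and 79.2% of 48 pairs) and group 6 least often (27.8% of 36 pairs). None of the 3 group 6 genes, Hoxa6, Hoxb6 and Hoxc6, was detected in any young sample. The same held for Hoxa13, Hoxb7, Hoxb13, Hoxc12 and Hoxd1, so it was not particular to group 6. Single young samples detected 27.0% to 42.9% of all genes, and the share of all genes detected in no young sample was not computed.

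**Figure D2:**
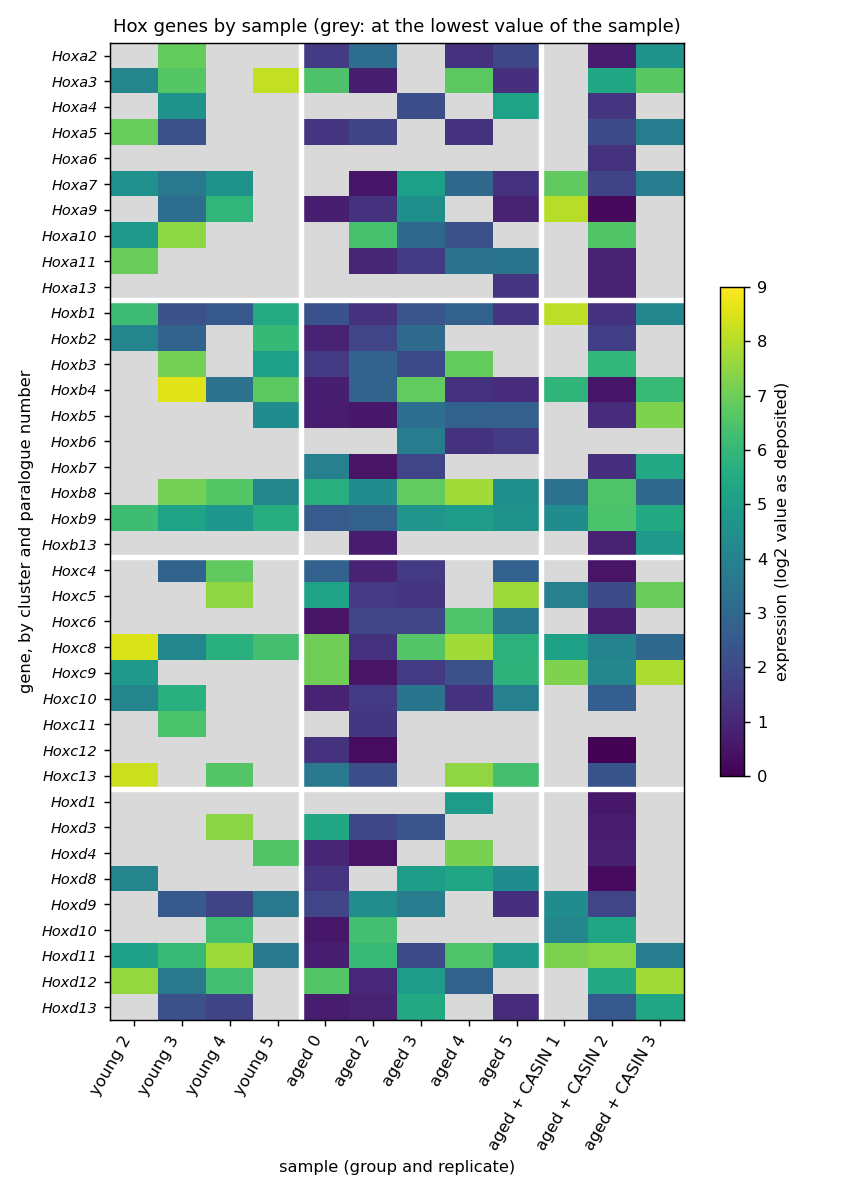
Log2 expression (colour) of 38 of the 39 Hox genes (rows, by cluster and paralogue number) in the 12 samples (columns, by group and replicate), with grey for genes at the lowest value of the sample. Hoxb1, Hoxb9, Hoxc8 and Hoxd11 are coloured in all 12 columns, whereas Hoxa6 is coloured in CASIN replicate 2 only.

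The 4 genes detected in every sample are the ones for which all groups can be compared on measured levels. Hoxb9 is a group 9 gene of thoracic patterning. Hoxb9 stood at 6.22, 5.23, 4.74 and 5.59 in young replicates 2, 3, 4 and 5, at 2.58, 2.79, 4.68, 4.95 and 4.62 in aged replicates 0, 2, 3, 4 and 5 and at 4.37, 6.44 and 5.52 in CASIN replicates 1, 2 and 3. Means were 5.44 ± 0.62 (SD, n = 4) for young HSCs, 3.92 ± 1.14 (SD, n = 5) for aged HSCs and, with CASIN, 5.44 ± 1.04 (SD, n = 3). The lowest values were those of aged replicates 0 and 2, and of the others aged replicate 4 alone lay within the young range. Hoxb1 specifies hindbrain identity. Hoxb1 stood at 6.16, 2.22, 2.48 and 5.55 in young replicates 2, 3, 4 and 5, at 2.26, 1.28, 2.38, 2.79 and 1.39 in aged replicates 0, 2, 3, 4 and 5 and at 8.12, 1.31 and 4.15 in CASIN replicates 1, 2 and 3. Its mean was 4.10 ± 2.04 (SD, n = 4) for young HSCs, 2.02 ± 0.66 (SD, n = 5) for aged HSCs and, with CASIN, 4.53 ± 3.42 (SD, n = 3), and no aged sample exceeded 2.79, a level that 2 young samples and CASIN replicate 2 also stayed below. Hoxc8 patterns the thoracic skeleton. Hoxc8 stood at 8.48, 4.14, 5.72 and 6.35 in young replicates 2, 3, 4 and 5, at 7.04, 1.32, 6.59, 7.75 and 5.78 in aged replicates 0, 2, 3, 4 and 5 and at 5.15, 4.04 and 3.03 in CASIN replicates 1, 2 and 3. Means were 6.17 ± 1.80 (SD, n = 4) for young HSCs, 5.70 ± 2.55 (SD, n = 5) for aged HSCs and, with CASIN, 4.07 ± 1.06 (SD, n = 3), with aged replicate 2 far below the other aged samples. Hoxd11 acts in forelimb and kidney development. Hoxd11 stood at 5.14, 6.06, 7.68 and 3.59 in young replicates 2, 3, 4 and 5, at 0.75, 6.10, 2.02, 6.54 and 4.85 in aged replicates 0, 2, 3, 4 and 5 and at 7.23, 7.38 and 3.82 in CASIN replicates 1, 2 and 3. Its mean was 5.62 ± 1.71 (SD, n = 4) for young HSCs, 4.05 ± 2.55 (SD, n = 5) for aged HSCs and, with CASIN, 6.15 ± 2.01 (SD, n = 3), and the 3 groups overlapped. The Hoxd11 value of aged replicate 0 was close to the lowest value of young replicate 2 (0.67).

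**Figure D3:**
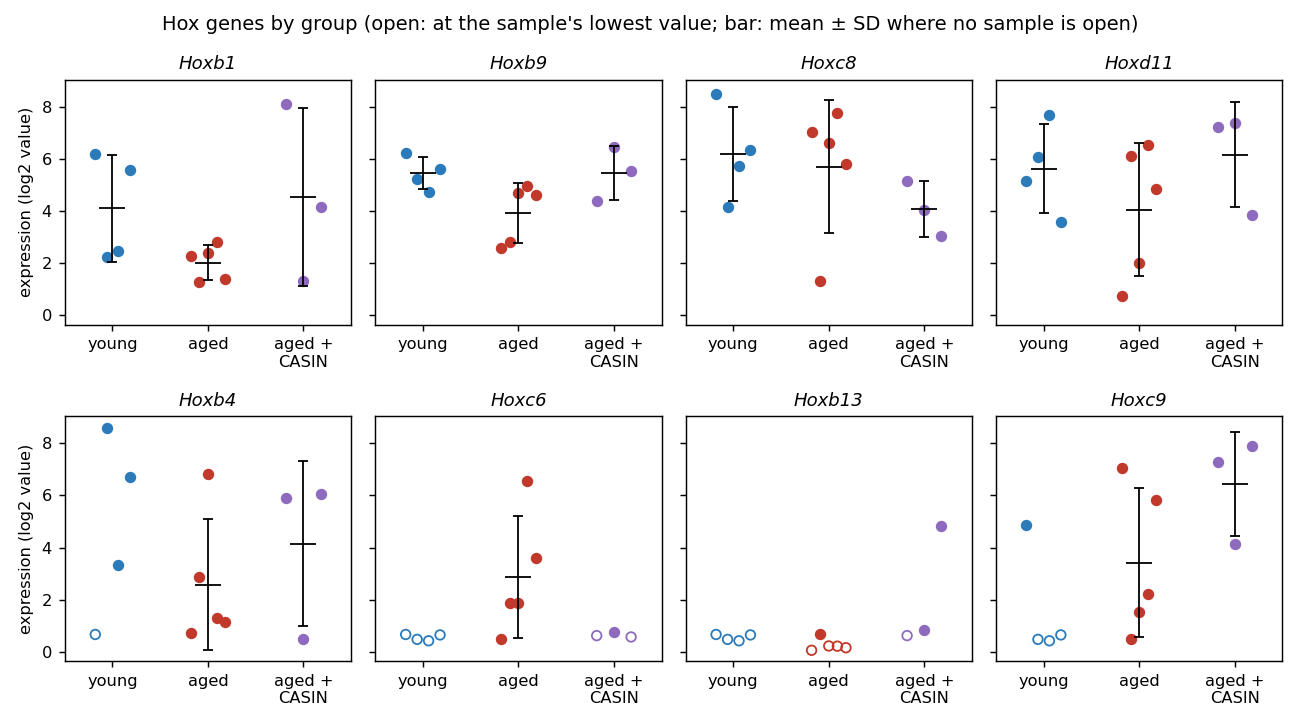
Log2 values (vertical axis) of 8 Hox genes in each sample by group (horizontal axis, from left to right 4 young, 5 aged and 3 CASIN-treated samples). Filled points are detected, open points are at the lowest value of the sample, and bars give mean ± SD where every sample of the group is detected. Hoxc6 is open in all 4 young samples and filled in all 5 aged samples, and Hoxb13 stands out in CASIN replicate 3 alone at 4.85.

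Of the HoxA genes, Hoxa9, a regulator of HSC self-renewal, was detected in 8 samples. Hoxa9 stood at 3.24 and 5.92 in young replicates 3 and 4, at 0.75, 1.30, 4.47 and 0.89 in aged replicates 0, 2, 3 and 5 and at 8.03 and 0.23 in CASIN replicates 1 and 2. The highest value was that of CASIN replicate 1 and the groups overlapped. Hoxa10, its neighbour, promotes progenitor expansion when overexpressed. Hoxa10 stood at 4.85 and 7.47 in young replicates 2 and 3, at 6.37, 3.01 and 2.23 in aged replicates 2, 3 and 4 and at 6.55 in CASIN replicate 2. Hoxa7, often activated together with Hoxa9 in leukemia, was detected in 10 samples. Hoxa7 stood at 4.55, 3.59 and 4.62 in young replicates 2, 3 and 4, at 0.51, 5.07, 3.03 and 1.32 in aged replicates 2, 3, 4 and 5 and at 6.80, 1.86 and 3.82 in CASIN replicates 1, 2 and 3. Both genes spanned the lowest value and high values within young and within aged samples. Hoxa5 is known for lung development. Hoxa5 stood at 6.93 and 2.22 in young replicates 2 and 3, at 1.38, 1.86 and 1.30 in aged replicates 0, 2 and 4 and at 2.05 and 3.82 in CASIN replicates 2 and 3. Its only value above 4 was that of young replicate 2. Hoxa3 is required for the thymus. Hoxa3 stood at 4.11, 6.61 and 8.16 in young replicates 2, 3 and 5, at 6.47, 0.74, 6.72 and 1.21 in aged replicates 0, 2, 4 and 5 and at 5.40 and 6.69 in CASIN replicates 2 and 3. Each group held samples above 5 and samples under 1. Hoxa2 acts in the hindbrain and branchial arches. Hoxa2 stood at 6.87 in young replicate 3, at 1.57, 3.24, 1.30 and 1.95 in aged replicates 0, 2, 4 and 5 and at 0.68 and 4.62 in CASIN replicates 2 and 3. Only young replicate 3 exceeded 5. Hoxa11 is a limb and kidney gene. Hoxa11 stood at 6.94 in young replicate 2, at 0.98, 1.54, 3.35 and 3.48 in aged replicates 2, 3, 4 and 5 and at 0.89 in CASIN replicate 2. The young value was the highest, and the other young samples showed none.

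Among the HoxB genes, Hoxb4, which expands HSCs when overexpressed and which the study examined by RT-PCR, was detected in all samples but young replicate 2. Hoxb4 stood at 8.60, 3.35 and 6.72 in young replicates 3, 4 and 5, at 0.75, 2.86, 6.83, 1.30 and 1.16 in aged replicates 0, 2, 3, 4 and 5 and at 5.90, 0.50 and 6.05 in CASIN replicates 1, 2 and 3. High values (above 5) occurred in 2 of 4 young, 1 of 5 aged and 2 of 3 CASIN-treated samples, and the groups overlapped. Hoxb3 lies next to it. Hoxb3 stood at 7.10 and 5.09 in young replicates 3 and 5, at 1.52, 2.86, 2.02 and 6.87 in aged replicates 0, 2, 3 and 4 and at 5.95 in CASIN replicate 2. Hoxb5 is known to mark long-term HSCs in the mouse. Hoxb5 stood at 4.37 in young replicate 5, at 0.67, 0.63, 3.30, 2.79 and 2.76 in aged replicates 0, 2, 3, 4 and 5 and at 1.15 and 7.25 in CASIN replicates 2 and 3. It was thus above the lowest value in all aged samples but in only 1 young sample, with the highest value in CASIN replicate 3. The values of aged replicates 0 and 2 were close to the lowest value of young replicate 2 (0.67), where Hoxb5 was not detected. Of all genes, a mean of 62.6% was detected in aged and 34.3% in young samples. Hoxb8 immortalizes myeloid progenitors when overexpressed. Hoxb8 stood at 7.12, 6.63 and 4.15 in young replicates 3, 4 and 5, at 5.66, 4.36, 6.83, 7.75 and 4.48 in aged replicates 0, 2, 3, 4 and 5 and at 3.34, 6.54 and 3.03 in CASIN replicates 1, 2 and 3. Apart from young replicate 2, every sample exceeded 3. Hoxb2 acts in the hindbrain. Hoxb2 stood at 4.11, 2.85 and 6.04 in young replicates 2, 3 and 5, at 0.86, 1.88 and 3.11 in aged replicates 0, 2 and 3 and at 1.68 in CASIN replicate 2. It was detected in 3 of 4 young and 3 of 5 aged samples, and after CASIN in replicate 2 only. Hoxb13 is a posterior gene of the prostate and tail. Hoxb13 stood at 0.67 in aged replicate 2 and at 0.86 and 4.85 in CASIN replicates 2 and 3, and at the lowest value in all young samples. No other sample came near the value of CASIN replicate 3.

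HoxC genes are known mainly from the trunk, its motor neurons and the skin. Hoxc9 defines thoracic motor neurons. Hoxc9 stood at 4.85 in young replicate 2, at 7.06, 0.48, 1.54, 2.23 and 5.82 in aged replicates 0, 2, 3, 4 and 5 and at 7.27, 4.15 and 7.88 in CASIN replicates 1, 2 and 3. All CASIN-treated samples exceeded 4, as did 2 aged and 1 young sample. Hoxc6 is expressed at forelimb level. Hoxc6 stood at 0.48, 1.88, 1.88, 6.54 and 3.62 in aged replicates 0, 2, 3, 4 and 5 and at 0.77 in CASIN replicate 2, and at the lowest value in all young samples. Its aged values ran from 0.48, close to the lowest value, to 6.54. Hoxc5 lies beside it. Hoxc5 stood at 7.52 in young replicate 4, at 5.22, 1.50, 1.36 and 7.69 in aged replicates 0, 2, 3 and 5 and at 3.92, 2.05 and 6.94 in CASIN replicates 1, 2 and 3. Single samples of each group stood high. Hoxc4 is the most anterior HoxC gene. Hoxc4 stood at 2.85 and 6.80 in young replicates 3 and 4, at 2.83, 0.89, 1.54 and 2.83 in aged replicates 0, 2, 3 and 5 and at 0.46 in CASIN replicate 2. Hoxc10 acts in lumbar motor neurons. Hoxc10 stood at 4.11 and 5.72 in young replicates 2 and 3, at 0.86, 1.52, 3.49, 1.30 and 3.92 in aged replicates 0, 2, 3, 4 and 5 and at 2.69 in CASIN replicate 2. Both genes were above the lowest value in 2 young samples and, after CASIN, in replicate 2 alone. Hoxc13 is required for hair. Hoxc13 stood at 8.30 and 6.60 in young replicates 2 and 4, at 3.59, 2.16, 7.49 and 6.36 in aged replicates 0, 2, 4 and 5 and at 2.34 in CASIN replicate 2. It was above 6 in 2 young and 2 aged samples and in no CASIN-treated sample.

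The HoxD genes act in limb and trunk patterning. Hoxd12 and Hoxd13 are digit genes. Hoxd12 stood at 7.57, 3.59 and 6.30 in young replicates 2, 3 and 4, at 6.61, 0.995, 4.95 and 2.79 in aged replicates 0, 2, 3 and 4 and at 5.44 and 7.75 in CASIN replicates 2 and 3. Hoxd13 stood at 2.22 and 1.84 in young replicates 3 and 4, at 0.67, 0.89, 5.48 and 1.16 in aged replicates 0, 2, 3 and 5 and at 2.48 and 5.34 in CASIN replicates 2 and 3. For both, each group held detected samples and samples at the lowest value. Hoxd9 was detected in 9 samples. Hoxd9 stood at 2.50, 1.84 and 3.59 in young replicates 3, 4 and 5, at 1.88, 4.43, 3.82 and 1.21 in aged replicates 0, 2, 3 and 5 and at 4.37 and 1.87 in CASIN replicates 1 and 2. No value exceeded 4.43. Hoxd8 was detected in 6 samples. Hoxd8 stood at 4.11 in young replicate 2, at 1.38, 5.01, 5.30 and 4.37 in aged replicates 0, 3, 4 and 5 and at 0.25 in CASIN replicate 2. Above 4 it was found in 3 of 5 aged samples, in 1 young sample and in none after CASIN. The remaining 11 genes, Hoxa4, Hoxa6, Hoxa13, Hoxb6, Hoxb7, Hoxc11, Hoxc12, Hoxd1, Hoxd3, Hoxd4 and Hoxd10, were detected in 1 to 5 samples each, and the highest value of each lay between 1.31 for Hoxa6 and 7.45 for Hoxd3. No Hox gene was without signal in all samples.

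To address whether Hox expression differs with age, young and aged HSCs were compared over all genes in limma. Hoxb9 was higher in young HSCs, by 1.52 log2 units (standard error 0.66, unadjusted p = 0.0422, adjusted p = 0.764). Hoxc6 was at the lowest value in young and detected in all aged HSCs. Its fitted difference of -2.32 (standard error 0.99, unadjusted p = 0.0403, adjusted p = 0.764) takes the lowest values as the young level and is no measure of the fold. These were the 2 of 39 Hox genes (5.13%) with an unadjusted p under 0.05, against 5.33% of all genes (2.13% higher and 3.2% lower in young), so that the share of Hox genes was near that of the table. After Benjamini-Hochberg adjustment over all genes no Hox gene had a p under 0.05 (0.0177% of all genes did). With all lowest values set equal, the values of the 2 groups did not fully separate for any Hox gene, Hoxc6 included (1.96% of all genes did). Detection in all aged and no young samples, shown by Hoxc6, was found for 1.48% of all genes, and the converse for 0.00887% and for no Hox gene. Hoxb4 differed by 2.26 (standard error 1.88, unadjusted p = 0.256), Hoxb1 by 2.08 (standard error 1.29, unadjusted p = 0.134), Hoxd11 by 1.57 (standard error 1.37, unadjusted p = 0.277) and Hoxc8 by 0.47 (standard error 1.29, unadjusted p = 0.721), none of which passed the unadjusted threshold. With only these 2 groups in the fit Hoxb1 had an unadjusted p of 0.0490. With 1 sample left out, Hoxb4 ran from 1.003 without young replicate 3 to 3.65 without young replicate 2, Hoxb1 from 1.40 without young replicate 2 to 2.71 without young replicate 3, and Hoxd11 from 0.74 without aged replicate 0 to 2.24 without young replicate 5, with no unadjusted p under 0.05 for these 3 genes. Differences of the 39 genes ran from -2.32 for Hoxc6 to 2.26 for Hoxb4. With a common lowest value 23 of the 39 were above and 14 below 0 (59.0% above, against 34.9% of all genes), the median being 0.24 against -0.17 for all genes. With the values as deposited the median was 0.42, against -0.017 for all genes, and 28 of 39 were above 0 (71.8%, against 49.5% of all genes). This median is the value of Hoxa6, which was detected in no young or aged sample, so that the differing lowest values of the samples set it (means 0.56 in young and 0.14 in aged). The differences of Hoxa13, Hoxb13 and Hoxc12, at the lowest value in all young samples, likewise rest on those lowest values. With samples centred on steadily detected genes (those above the lowest value in all 12) 30 were above 0 (76.9%, against 64.0% of all genes). The median was then 0.87 against 0.44. By cluster, with the values as deposited, the median was 0.50 for HoxA, 0.46 for HoxB, 0.11 for HoxC and 0.23 for HoxD. The HoxC median is the value of Hoxc12 and so rests on the lowest values.

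Neither call held in every fit with 1 sample left out. For Hoxb9 the unadjusted p from limma was 0.113, 0.0609 and 0.0799 without young replicate 2, 3 or 5, 0.0946 and 0.0931 without aged replicate 0 or 2, and 0.0529 without CASIN replicate 3, which enters only the shared variance. For Hoxc6 it was 0.0656 to 0.0739 without any 1 young replicate, 0.0786 without aged replicate 5 and 0.0513 to 0.0523 without any 1 CASIN replicate. The Hoxc6 difference itself stayed at -2.36 to -2.28 without any 1 young replicate. It was -1.40 without aged replicate 4, where the call held. No Hox gene was called without young replicate 3 or 5 or CASIN replicate 3. A single gene was called without young replicate 2 (Hoxd8), without aged replicate 0 (Hoxc6) and without aged replicate 5 or CASIN replicate 1 or 2 (Hoxb9 each time). The calls were Hoxb2 and Hoxb9 without young replicate 4, Hoxc6 and Hoxd8 without aged replicate 2, Hoxb9 and Hoxc6 without aged replicate 4, and Hoxb2, Hoxb9 and Hoxc6 without aged replicate 3.

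**Figure D4:**
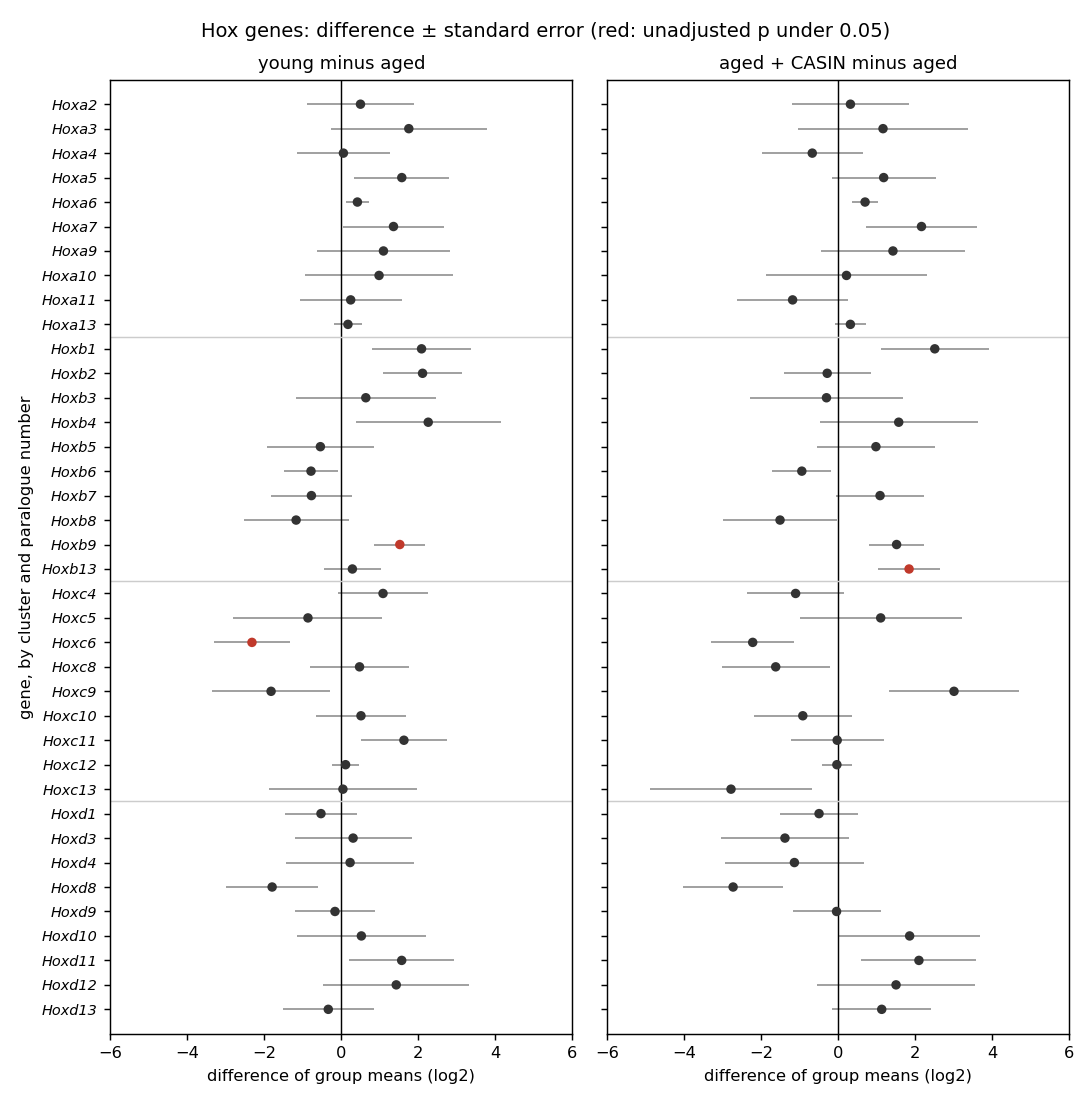
Difference of group means (log2, horizontal axis) with its standard error from limma for 38 of the 39 Hox genes (vertical axis), for young minus aged (left) and aged CASIN-treated minus aged HSCs (right). Red points have an unadjusted p under 0.05, namely Hoxb9 and Hoxc6 on the left and Hoxb13 on the right. Both panels use the same 5 aged samples.

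Aged CASIN-treated and aged HSCs were compared to address whether inhibition of Cdc42 changes Hox expression. Hoxb13 was higher after CASIN by 1.84 (standard error 0.81, unadjusted p = 0.0457, adjusted p = 0.948), of which CASIN replicate 3 carried most. It was the only Hox gene with an unadjusted p under 0.05 (2.56%, against 4.4% of all genes, 2.48% higher and 1.92% lower after CASIN), and none passed after adjustment (0.0222% of all genes did). For no Hox gene did the 2 groups separate with a common lowest value (2.11% of all genes did), and none was detected in all samples of one group and no sample of the other (0.031% of all genes were with CASIN only, 0.0355% in aged only). Without CASIN replicate 3 the difference of Hoxb13 was 0.47 (unadjusted p = 0.242), and without any 1 young or aged replicate the unadjusted p was 0.0539 to 0.0731. Hoxb9 differed by 1.52 (standard error 0.72, unadjusted p = 0.0589), Hoxb1 by 2.51 (standard error 1.40, unadjusted p = 0.101), Hoxd11 by 2.10 (standard error 1.49, unadjusted p = 0.188), Hoxb4 by 1.57 (standard error 2.05, unadjusted p = 0.459) and Hoxc8 by -1.62 (standard error 1.41, unadjusted p = 0.274). Single libraries weighed on these values. Without CASIN replicate 2, which detected far more genes than the others, Hoxb1 differed by 4.11 (unadjusted p = 0.0114), whereas without CASIN replicate 1 it differed by 0.71 (unadjusted p = 0.566). Hoxb9 differed by 2.05 without CASIN replicate 1 (unadjusted p = 0.0261) and by 1.71 and 1.77 without aged replicate 3 or 4 (0.0485 and 0.0362), but by 1.02 without CASIN replicate 2 (0.225) and by 1.18 and 1.23 without aged replicate 0 or 2 (0.119 and 0.117). Hoxc8 differed by -2.72 without aged replicate 2 (unadjusted p = 0.0197) and by -1.10 without CASIN replicate 3 (0.522). With 1 sample left out, Hoxb4 ran from 0.62 without CASIN replicate 3 to 3.40 without CASIN replicate 2, and Hoxd11 from 1.27 without aged replicate 0 to 3.26 without CASIN replicate 3, with no p under 0.05. The number of Hox genes called was 3 without aged replicate 0, 2 without aged replicate 2 or CASIN replicate 1 or 2, and 0 without young replicate 3, 4 or 5, aged replicate 5 or CASIN replicate 3. Differences ran from -2.78 for Hoxc13 to 3.01 for Hoxc9. With the values as deposited the median was 0.32, against -0.038 for all genes, and 21 were above 0 (53.8%, against 48.4%). This median is the value of Hoxa13, which was detected in 1 aged and 1 CASIN-treated sample. It therefore rests largely on the differing lowest values of the samples. With a common lowest value the median was 0.039, against -0.17 for all genes, and with centring it was 0.67 against 0.31. By cluster, with the values as deposited, the median was 0.70 for HoxA, 1.03 for HoxB, -0.92 for HoxC and -0.042 for HoxD. The HoxA median is the value of Hoxa6, detected in CASIN replicate 2 alone, and likewise rests largely on the lowest values.

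Between young and aged CASIN-treated HSCs, Hoxc9 was lower in young by 4.83 log2 units (difference -4.83, standard error 1.75, unadjusted p = 0.0191, adjusted p = 0.9995 from limma), 3 of the 4 young samples being at the lowest value. It was the only Hox gene with an unadjusted p under 0.05 (2.56%, against 4.29% of all genes, 1.39% higher and 2.9% lower in young), and no gene of the table passed after adjustment, where 968 had an unadjusted p under 0.05. The groups separated for no Hox gene (2.07% of all genes with a common lowest value). Detection in all CASIN-treated and no young samples was found for 0.701% of all genes and no Hox gene. The p for Hoxc9 was 0.0599 without CASIN replicate 1 and 0.0716 without CASIN replicate 3. The number of Hox genes called was 2 without young replicate 4 or CASIN replicate 2 and 0 without CASIN replicate 3. The other comparisons share their samples with this one. Hoxc9 differed by -1.82 between young and aged (standard error 1.54, unadjusted p = 0.262) and by 3.01 between CASIN-treated and aged HSCs (standard error 1.68, unadjusted p = 0.101). For Hoxb9 the difference between young and CASIN-treated HSCs was 0.0032 (standard error 0.75).

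The genes that act with and on the Hox genes were examined as 4 lists. The TALE cofactors were examined first. Meis1 was detected in all 12 samples and is the partner of Hoxa9. Meis1 stood at 7.20, 6.58, 7.12 and 6.89 in young replicates 2, 3, 4 and 5, at 7.80, 7.32, 8.53, 6.54 and 7.71 in aged replicates 0, 2, 3, 4 and 5 and at 8.28, 7.36 and 8.09 in CASIN replicates 1, 2 and 3. Means were 6.95 ± 0.28 (SD, n = 4) for young HSCs, 7.58 ± 0.73 (SD, n = 5) for aged HSCs and, with CASIN, 7.91 ± 0.49 (SD, n = 3). All samples lay between 6.54 and 8.53. Meis1 differed by -0.63 between young and aged (standard error 0.44, unadjusted p = 0.182) and by 0.33 between CASIN-treated and aged HSCs (standard error 0.48, unadjusted p = 0.508). Meis2, a paralogue of Meis1, was likewise detected in all samples. Meis2 stood at 7.90, 4.69, 6.06 and 5.91 in young replicates 2, 3, 4 and 5, at 7.002, 5.99, 6.91, 7.86 and 7.82 in aged replicates 0, 2, 3, 4 and 5 and at 5.39, 6.21 and 4.39 in CASIN replicates 1, 2 and 3. Means were 6.14 ± 1.32 (SD, n = 4) for young HSCs, 7.12 ± 0.77 (SD, n = 5) for aged HSCs and, with CASIN, 5.33 ± 0.91 (SD, n = 3). The aged and CASIN ranges overlapped. It was lower after CASIN than in aged HSCs (difference -1.78, standard error 0.74, unadjusted p = 0.0359, adjusted p = 0.948). This call was lost without aged replicate 0, 4 or 5 (unadjusted p = 0.0506, 0.0705 and 0.0699) or CASIN replicate 1 or 3 (0.0700 and 0.148). Among the 9 cofactors 0 passed at the unadjusted threshold in young against aged (5.33% of all genes did), 1 in CASIN-treated against aged HSCs (Meis2, against 4.4% of all genes) and 0 in young against CASIN-treated HSCs (4.29% of all genes did). The cofactors Meis3 and Pbx4 were detected in 2 samples each.

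**Figure D5:**
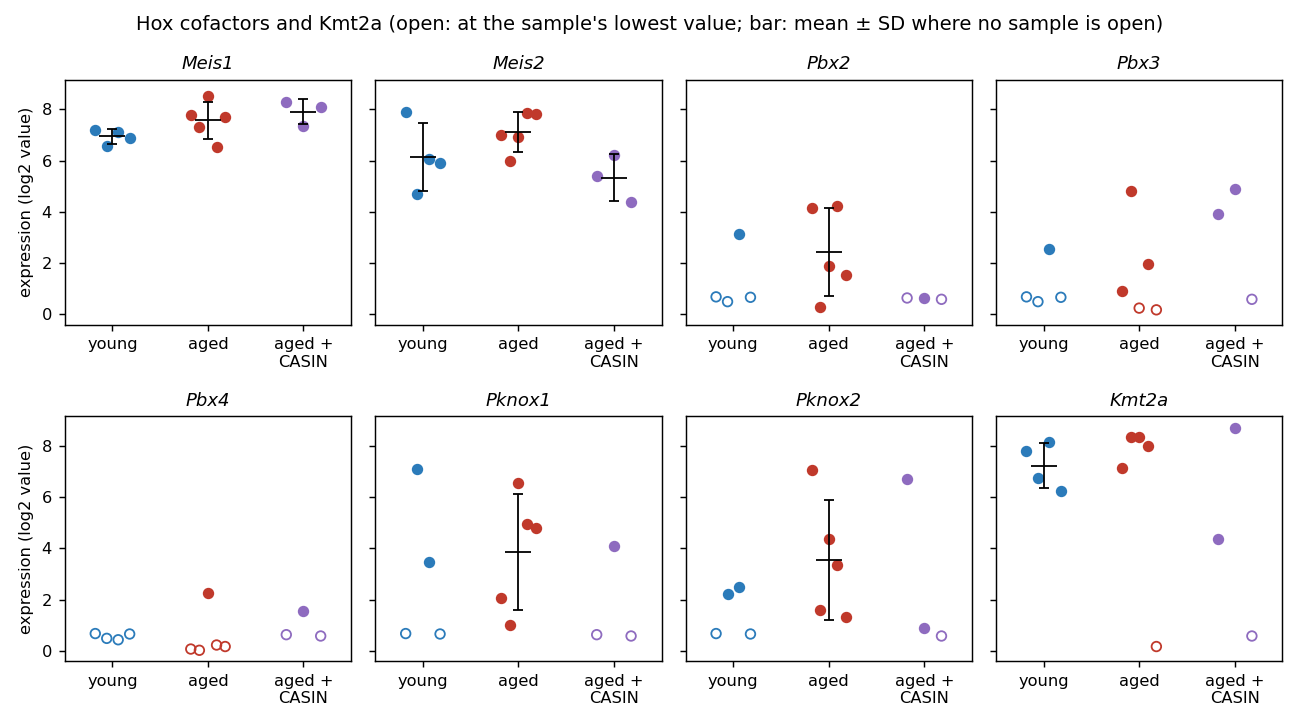
Log2 values (vertical axis) of 7 Hox cofactors and of Kmt2a in each sample by group (horizontal axis), with open points at the lowest value of the sample and bars for mean ± SD where no sample is open. Meis1 and Meis2 are detected in all 12 samples, Pbx4 is in 2, and Meis1 lies between 6.54 and 8.53.

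Of 20 upstream activators (the MLL complex and its partners, Cdx genes and Ctcf), 1 was lower in young than in aged HSCs at the unadjusted threshold and 1 lower in young than in CASIN-treated HSCs, with 0 in CASIN-treated against aged HSCs. These counts stand against 5.33%, 4.29% and 4.4% of all genes, so that 1 of 20 is near the share of the table. The first was Dot1l, an H3K79 methyltransferase. Dot1l stood at 6.39, 1.53, 3.11, 6.99 and 1.54 in aged replicates 0, 2, 3, 4 and 5 and at 6.12 in CASIN replicate 2, and at the lowest value in all young samples. Its fitted difference was -3.35 (unadjusted p = 0.0412, adjusted p = 0.764). The call was lost without any 1 young replicate (unadjusted p = 0.0679 to 0.0742) and without aged replicate 0, 3 or 4 (0.0951, 0.0503 and 0.0956). The other was Mllt6, which the study also examined. Mllt6 stood at 4.55, 2.50 and 2.26 in young replicates 2, 3 and 4, at 6.07, 5.71, 2.79, 1.30 and 4.89 in aged replicates 0, 2, 3, 4 and 5 and at 3.34, 6.53 and 6.97 in CASIN replicates 1, 2 and 3. Its difference between young and CASIN-treated HSCs was -3.12 (unadjusted p = 0.0428, adjusted p = 0.9995). It was lost without young replicate 3, 4 or 5 (unadjusted p = 0.0684, 0.0746 and 0.108), aged replicate 5 (0.0529) or CASIN replicate 2 or 3 (0.128 and 0.147). Kmt2a itself was detected in 10 samples. Of 9 genes often listed as downstream of Hoxa9 and Meis1, Erg and Lmo2, both transcriptional regulators of HSCs, passed the unadjusted threshold in young against aged HSCs (2 of 9, against 5.33% of all genes). Erg stood at 1.38, 2.46, 7.12, 4.04 and 5.78 in aged replicates 0, 2, 3, 4 and 5 and at 1.02 in CASIN replicate 2, and at the lowest value in all young samples. Its fitted difference was -3.60 (unadjusted p = 0.00451, adjusted p = 0.558), with the young level at the lowest values. Lmo2 stood at 4.11, 2.85 and 6.47 in young replicates 2, 3 and 4, at 2.40 in aged replicate 5 and at 1.88 in CASIN replicate 2. It was higher in young HSCs by 2.93 (unadjusted p = 0.0154, adjusted p = 0.764). No downstream gene passed in young against CASIN-treated HSCs (4.29% of all genes did). After CASIN, Erg alone of this list passed (1 of 9, against 4.4% of all genes) and differed from aged HSCs by -3.42 (unadjusted p = 0.0100, adjusted p = 0.948). In all fits without 1 sample the unadjusted p stayed under 0.05 for Erg in both comparisons and for Lmo2. For Lmo2 it was 0.0757 with the replicate number as a block, and for Erg after CASIN 0.0525 with limma-trend. Erg was detected only in the samples with 50.8% to 88.8% of all genes detected, and in none with 27.0% to 42.9%. Detection in all aged and no young samples was found for 1.48% of all genes. For Lmo2 every aged sample but replicate 5 was at the lowest value. The part of detection in these differences was not tested. Of 19 genes flanking the clusters, 1 passed in CASIN-treated against aged HSCs (4.4% of all genes did), Evx1, the homeobox gene at the end of HoxA. Evx1 stood at 4.89 in young replicate 4, at 1.96 in aged replicate 2 and at 7.12, 0.14 and 4.62 in CASIN replicates 1, 2 and 3. It was higher in CASIN-treated than in aged HSCs by 3.43 (unadjusted p = 0.0397, adjusted p = 0.948), but not without CASIN replicate 1 or 3 (unadjusted p = 0.224 and 0.108) or aged replicate 0, 3, 4 or 5 (0.0678, 0.0647, 0.0650 and 0.0660). None of the 19 passed in young against aged (5.33% of all genes did) or CASIN-treated HSCs (4.29%). With the values as deposited, the median differences between young and aged HSCs were -0.89 for the cofactors, -0.099 for the activators, 0.32 for the downstream genes and -0.40 for the flanking genes. The median of all genes was -0.017. The cofactor median is the value of Pknox1 (standard error 1.57), which was detected in 2 of 4 young samples, and the lowest values enter these medians too.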

How the data were processed

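HSCs were profiled by RNA-seq in 4 young, 5 aged and 3 CASIN-treated samples, grouped by the labels. From the paired-end reads the authors removed adapters and bases of low quality (trim galore, phred threshold 20). TopHat served for alignment against mm10 RefSeq and Cufflinks for the further steps (versions not given in the sources used here). The authors deposited log2 values for 22548 genes. All samples share one highest value and nearly one distribution, as quantile normalization gives, but this step is not described. Equal distributions hide differences in total RNA. Values give no counts, so depth and counting error are unknown.

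Values were used as deposited. A gene was called detected above the lowest value of its sample. All genes entered limma 3.58.1 (R 4.3.3) in one fit of 12 samples and 3 groups, without a filter, with Benjamini-Hochberg adjustment over all genes (two-sided moderated test). On simulated data for young against aged HSCs, with the values of all 22548 genes shuffled among samples and 200 genes moved by 4 log2 units, 64 were recovered after adjustment and 172 at an unadjusted p under 0.05. Each gene was shuffled on its own, which removed the gap in detection between young and aged samples. All young values of a moved gene were raised, those at the lowest value included. The recovery therefore does not give the power for the Hox genes as measured. Counts and figures used Python 3.11.15 with pandas 2.3.3 and matplotlib 3.10.9.

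Hox genes detected in at least 6 samples or with an unadjusted p under 0.05 in any comparison, and Hoxb4, are named with their values. The same p rule, with Meis1, was used for the pathway lists. Values of a few genes are not reported here. Members and lists were chosen with earlier results of these data known. Alternatives were a common lowest value, centring, genes detected in at least 3 samples, a pseudocount of 0.1 in place of an assumed 1, array weights, limma-trend, 2 groups only, a replicate block, and fits without each single sample. No batch is given in the labels. The other assays of the study were not analysed here.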

Additional observations from a re-analysis of the deposited data

Results flagged for a closer look

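Within young or aged HSCs, single samples stood apart from the others of their group (by Dixon's ratio of the gap to the nearest sample over the range of the group) in 9 of 62 groups of values. In young HSCs this was Hoxa2 in replicate 3 (log2 value 6.87), Hoxa11 in replicate 2 (6.94), Hoxb5 in replicate 5 (4.37), Hoxc5 in replicate 4 (7.52), Hoxc9 in replicate 2 (4.85) and Hoxd8 in replicate 2 (4.11). Each was the only young sample in which the gene was detected. In aged HSCs it was Hoxa9 in replicate 3 (4.47), Hoxd13 in replicate 3 (5.48) and Hoxb13 in replicate 2 (0.67), the last being the only aged sample with detection. In these 7 groups with 1 detected sample the others were at their lowest values, so that the ratio depends on those values and the rate of about 1 in 20 that chance gives does not apply. Hoxa9 and Hoxd13 were detected in 4 of 5 aged samples each.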

How the results depend on the processing

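The number of Hox genes with an unadjusted p under 0.05 changed with most settings, whereas none passed after adjustment under any of the alternatives. Young against aged HSCs (2 genes as deposited) gave 1 gene with a filter for detection in at least 3 samples, 1 with a pseudocount of 0.1, 0 with limma-trend, 3 with centring (Hoxa6, Hoxb2 and Hoxb9), 3 with array weights (Hoxb2, Hoxb9 and Hoxc6), 2 with 2 groups only, now Hoxb1 and Hoxb9 without Hoxc6, and 0 to 3 with each sample left out. CASIN-treated against aged HSCs (1 gene) gave 0 with a common lowest value, 3 with centring, 0 with the filter, 2 with the pseudocount, 2 with limma-trend, 0 with 2 groups only, and 0 to 3 with samples left out. Young against CASIN-treated HSCs (1 gene) gave 2 with array weights, 2 with limma-trend, and 0 to 2 with samples left out. Over 20 alternatives each, the unadjusted p stayed under 0.05 in 10 for Hoxb9 (0.0163 to 0.181), 9 for Hoxc6 (0.0102 to 0.104), 6 for Hoxb13 (0.0126 to 0.242) and 17 for Hoxc9 (0.0063 to 0.0944). The cause of these changes was not tested.

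The labels do not state whether equal replicate numbers mark samples prepared together. Deviations of same-numbered samples from their group means correlated at -0.033 to 0.058. With many values at the lowest value of the sample, these correlations cannot decide on a pairing. With the replicate number as a block the 3 counts were 1, 0 and 0, and the difference of Hoxb4 between CASIN-treated and aged HSCs was -0.56. For Hoxc8 the difference between young and aged HSCs ran from -0.62 to 1.15 with samples left out, below 0 without young replicate 2 or aged replicate 2. The share of Hox genes in aged HSCs was 38.5% when a value of at least 2 was required, and 67.3% to 73.1% with samples left out. Leaving samples out gave 37.6% to 46.2% in young and 38.5% to 69.2% in CASIN-treated HSCs. Of 480 alternative values for single genes, 393 kept direction and side of the threshold, 76 no longer passed, 8 newly passed and 3 changed sign. With 3 to 5 samples a group, unknown depth and a median standard error of 1.29 for a Hox gene between young and aged HSCs, differences of about 1 log2 unit were not resolved.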
